A study of Oryza sativa with 36 samples.

Results

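In rice flag leaves of the variety WFB, the change of each gene from day 1 to day 10 after flowering was compared between early rice and middle rice, the growing environments named in the labels, written as early and middle season in the text. The comparison used 12 of the 36 libraries of the series, with 3 libraries in each of 4 groups: day 1 early, day 10 early, day 1 middle and day 10 middle. WFB is a parent of the super-hybrid WFYT025, and the other 24 libraries come from WFYT025 and its other parent CHT025 at the same days and seasons. The labels name no altered gene and no treatment. The quantity compared was the interaction, which is the day 10 minus day 1 difference of log2(FPKM + 1) in the middle season minus the same difference in the early season. FPKM is the fragment count scaled by transcript length and library size, so levels may be compared between genes. A positive interaction means that the gene rose more, or fell less, in the middle season. Every change is on this log2 scale, where adding 1 understates the change of low genes. Of 34623 genes, 18585 were tested, those with 1 FPKM or more in at least 3 of the 36 libraries.

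The flag leaf is the uppermost leaf of the rice shoot and a main source of sugar for the grain, which starts to fill after flowering. Many of its genes are known to respond to leaf age, light, temperature, pathogens and the circadian clock, a daily timer built from genes that peak at different hours. Jasmonate, a hormone of wounding and defence, switches on genes by removing ZIM-domain (JAZ) repressor proteins, and the ZIM genes are themselves switched on by the hormone. Nitrate reductase and the starch and sucrose enzymes of leaves are known to follow light and the time of day.

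The 3 libraries labelled WFB day 1 early stood apart from the other 9 WFB libraries. With a gene counted as on at 2 FPKM or more in all 3 libraries of a group, and as off at 0.1 FPKM or less in every library of the other groups of that variety, 73 genes were on in day 1 early alone. The same count was 6 for day 10 middle and 0 for each of the other WFB groups, 0 to 1 for the CHT025 groups and 0 to 10 for the WFYT025 groups. A further 6 genes were off in day 1 early alone. Of the 73 genes, 42 were off in all other libraries of the series, while no other group had more than 1 such gene. Examples are an NBS-LRR immune receptor gene, LOC_Os11g11550, with a mean of 24.7 FPKM in day 1 early, and a gene of a hydroxyacid oxidase, LOC_Os08g09860, with 11.3. These 42 genes passed the filter through the day 1 early libraries alone. Their interactions could only be positive, and they remain in the counts over all genes and lists. Of 64 genes that were on in all CHT025 libraries and off in the 9 other WFB libraries, 21 were above 0.1 FPKM in all 3 day 1 early libraries and 41 were off there. Conversely, all 43 genes on in the 9 other WFB libraries and off in CHT025 were above 0.1 FPKM in day 1 early. The cause of this pattern was not tested. Whether the libraries labelled WFB day 1 early hold the same plant material as the other WFB libraries is in doubt, and every interaction in the text rests on their label. Every interaction uses the day 1 early libraries and cannot be computed without them. The middle-season change and the middle minus early difference on day 10 do not use them. They are given for some genes only, and most list counts have no such value beside them. The interactions of CHT025 and WFYT025 also use none of these libraries.

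Within each group the libraries were close, with a Pearson's r across genes of 0.9902 to 0.9949 against 0.7962 to 0.9404 between WFB groups (genes are not independent replicates). Whether replicates are different plants is not stated in the labels, and p-values therefore rest on a spread that may be technical. Effects of season and of any sampling or sequencing batch tied to season cannot be told apart. Read numbers cannot be had from FPKM, and sequencing depth is therefore unknown. The leaf markers, Rubisco small subunit, Rubisco activase and chlorophyll-binding protein genes, summed to between 30192 and 40336 FPKM in all 12 libraries. In bulk tissue, fewer cells of a type and less RNA per cell cannot be told apart.

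Most genes differed between the seasons in their day change. Of 18585 genes tested, 14373 (77.3%) had a called interaction (limma, Benjamini-Hochberg adjusted p under 0.05), 9936 (53.5%) above 0 and 4437 (23.9%) below. At least 2-fold were 4005 (21.5%) above and 2134 (11.5%) below. In the middle season, without the day 1 early libraries, 3246 of the 4005 had a called rise and 59 a called fall. The rise was at least 2-fold for 807. Of the 2134, 1746 had a called fall there and 124 a called rise, and the fall was at least 2-fold for 737. The middle change is part of the interaction on which these genes were chosen. The median of all genes was not at 0: it was -0.15 for the early change, 0.16 for the middle change and 0.35 for the interaction, on the log2 scale. After quantile normalization, which gives all libraries the same distribution, these medians were -0.01, 0.03 and 0.07. The counts then were 7298 above and 6006 below, and at 2-fold 2630 above and 2680 below, so the excess of positive interactions of 2-fold depends on the scaling. Of the called genes, 69.1% were above 0 as deposited and 54.9% after quantile normalization. List counts after it stand against these 7298 and 6006 of 18585 genes, not against 53.5% and 23.9%.

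Reversal was common. Of the genes with a called interaction, 4983 (26.8% of those tested) fell in the early season and rose in the middle season, and 2003 (10.8%) did the opposite. After quantile normalization these were 2950 and 2732 genes, of which 2911 and 1901 were among those counted without it. Among the other called genes, 1228 changed in the same direction in both seasons, 3393 passed the test in the early season alone, 2554 in the middle season alone and 212 in neither. A reversal of at least 2-fold in each season was seen for 261 genes (1.4%) that fell early and rose middle, and for 267 (1.44%) that rose early and fell middle. The season libraries are separate, so these changes share no library. In the authors' deposited tables, 700 genes are listed as falling early and rising middle and 403 as the opposite, and these tables hold 256 of the 261 and 263 of the 267 genes.

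**Figure D1:**
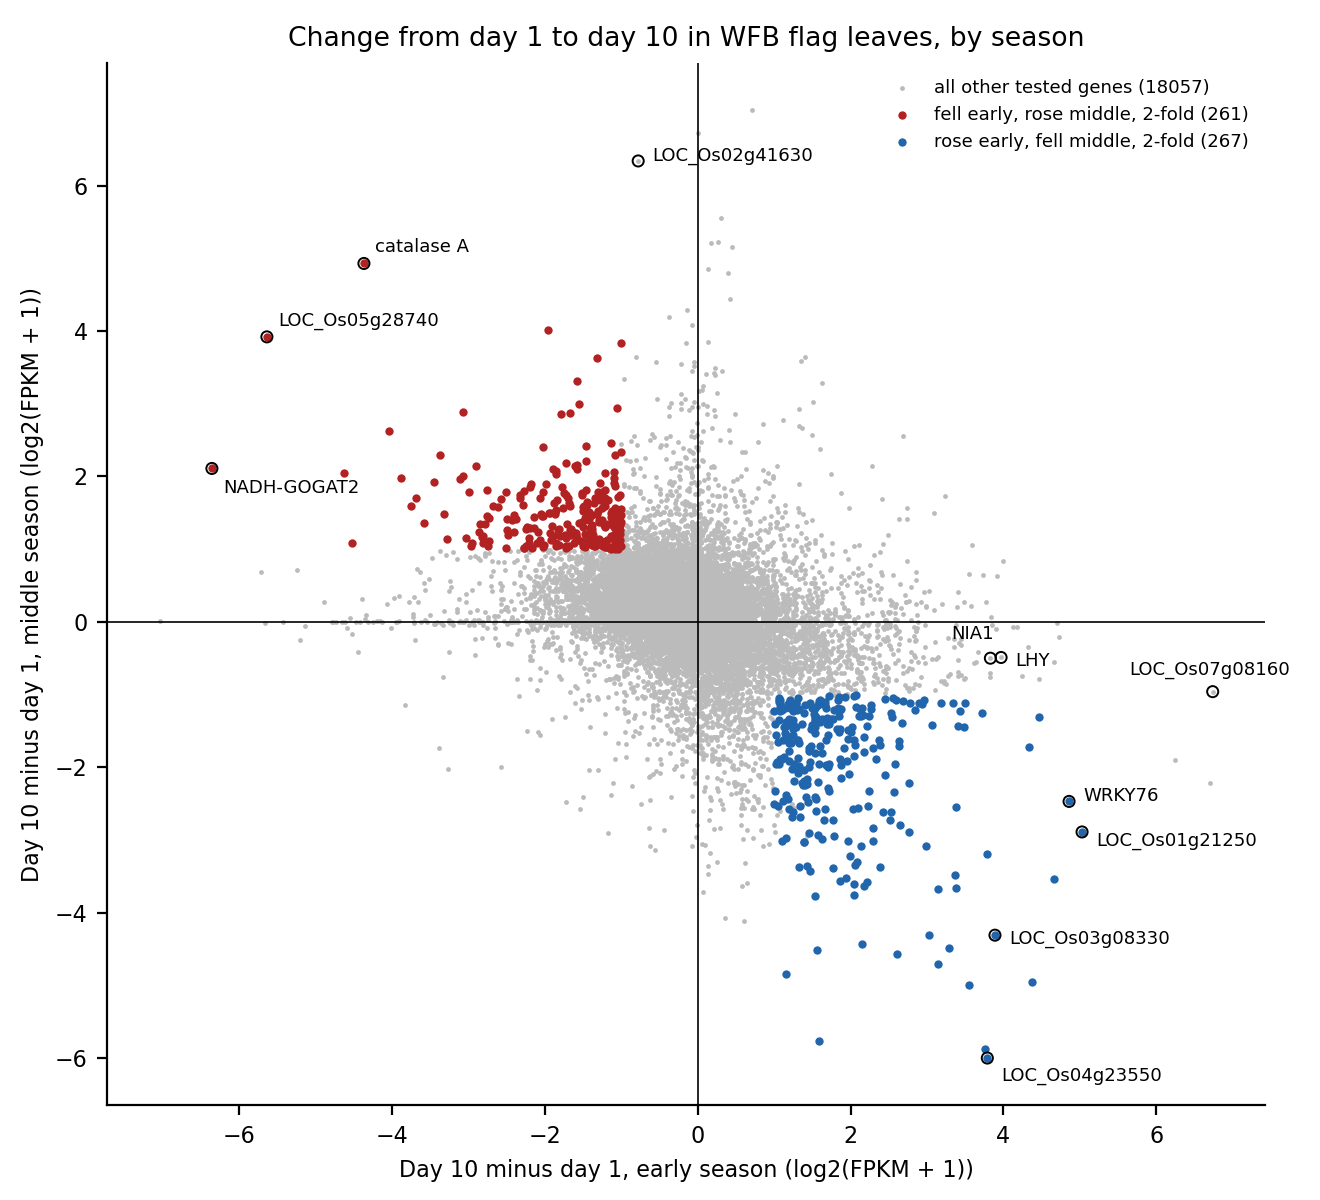
Change from day 1 to day 10 in WFB for each of the 18585 tested genes, early season on the horizontal and middle season on the vertical axis, as differences of log2(FPKM + 1). Red marks the 261 genes that fell early and rose middle by at least 2-fold each, blue the 267 with the opposite pattern, and circles mark genes described in the text.

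The early season gave the larger of both changes for 4024 of the 6139 genes with a 2-fold interaction, and the middle season for 2115. The season difference was larger on day 1 for 4621 of them and larger on day 10 for 1518. Each gene has 4 group means. In 2268 (56.6%) of the 4005 positive genes day 1 early was the group farthest from the median of the other groups. Day 10 middle was the farthest for 834 (20.8%). Among the 2134 negative genes, day 1 early was the farthest for 1147 (53.7%) and day 1 middle for 763 (35.8%). Whether the farthest group lies above or below the others is fixed by the sign of the interaction and is no result.

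Of the genes tested, the largest positive interaction was that of a universal stress protein gene, LOC_Os05g28740, from a family of small nucleotide-binding proteins. Its values were 999.8, 1179 and 1109 FPKM on day 1 and 19.5, 22.5 and 20.8 on day 10 in the early season, and 1.64, 1.98 and 2.52 on day 1 and 38.6, 49.1 and 47.5 on day 10 in the middle season. It was very high on day 1 early and near 2 FPKM on day 1 middle, with no overlap between days in either season. The interaction was 9.56 ± 0.24 (log2 ± SE, limma adjusted p = 1.25e-24). It was 5.41 in CHT025 and 5.10 in WFYT025, and the WFB value was the higher by 4.15 (limma adjusted p = 1.1e-11) and 4.46 (limma adjusted p = 2.38e-12).

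Catalase A (LOC_Os02g02400), an enzyme that breaks down hydrogen peroxide in peroxisomes, showed a nearly symmetric reversal. It had 168, 193 and 188 FPKM on day 1 and 7.14, 9.24 and 7.38 on day 10 in the early season, and 3.8, 5.8 and 5.96 on day 1 and 244, 129 and 200.1 on day 10 in the middle season. The day 1 early and day 10 middle libraries overlapped, and both groups were far above the others. The interaction was 9.30 ± 0.37 (log2 ± SE, limma adjusted p = 9.24e-20), and the day 10 season difference, which leaves out day 1 early, was 4.39 (log2, limma adjusted p = 4.08e-15). Catalase B (LOC_Os06g51150) also fell early (-1.09) and rose middle (1.56), at means of 12.7, 5.4, 7.51 and 24.1 FPKM. Of 33 antioxidant enzyme genes tested (35 listed), 16 (48.5%) had a positive and 12 (36.4%) a negative called interaction, against 53.5% and 23.9% of all genes.

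NADH-GOGAT2 (LOC_Os05g48200), a glutamate synthase that makes glutamate from glutamine, had 385, 357 and 364 FPKM on day 1 and 3.48, 3.5 and 3.57 on day 10 in the early season, and 1.27, 1.43 and 1.4 on day 1 and 8.92, 9.66 and 9.12 on day 10 in the middle season. It thus fell from a high level early and rose within a low range in the middle season. Its interaction was 8.47 ± 0.09 (log2 ± SE, limma adjusted p = 7.29e-34). An aquaporin gene (LOC_Os05g14240), a water channel, was also highest on day 1 early and lowest on day 1 middle, with means of 228, 5.01, 0.543 and 1.55 FPKM, as was an auxin-repressed protein gene (LOC_Os11g44810) with 653, 38.6, 9.2 and 61.9. These genes were highest on day 1 early, so their interactions rest mainly on the group that stands apart. An acyl-CoA dehydrogenase gene (LOC_Os06g23870) did so entirely: it averaged 150.0 FPKM there and at most 0.147 in the other WFB groups.

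Another set had positive interactions through a rise in the middle season. A phenylalanine ammonia-lyase gene (LOC_Os02g41630), whose enzyme opens the pathway to lignin and phenolic defence compounds, had 3.09, 2.12 and 3.07 FPKM on day 1 and 1.09, 2.05 and 0.62 on day 10 in the early season, and 1.04, 1.08 and 1.94 on day 1 and 219, 155 and 189.9 on day 10 in the middle season. The 3 day 10 middle libraries were far above the other 9. The middle change was 6.34 and the interaction 7.11 ± 0.35 (log2 ± SE, limma adjusted p = 1.31e-17). A neighbouring gene of the same enzyme, LOC_Os02g41680, had a middle change of 5.56 and an early change of 0.30, which did not pass the test. Pathogenesis-related Bet v I genes, small defence-linked proteins, followed: LOC_Os12g36880 averaged 17, 5.37, 26.3 and 272 FPKM, and its neighbour LOC_Os12g36850 had an interaction of 5.97 ± 0.45 (log2 ± SE, limma adjusted p = 4.87e-13). Such neighbouring copies may share reads, so their separate values are uncertain. A RALF signal peptide gene (LOC_Os10g42020) averaged 7.86 FPKM on day 1 and 127 on day 10 of the middle season. A chaperonin gene, LOC_Os06g09688, was listed at 0 in 9 WFB libraries and at 99.5 to 111 FPKM in the 3 day 10 middle libraries. Its interaction had a standard error of 1.96 and an adjusted p of 0.00283 (limma).

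Of 56 phenylpropanoid genes tested (105 listed), 32 (57.1%) had a positive and 13 (23.2%) a negative called interaction, close to the 53.5% and 23.9% of all genes. After quantile normalization the counts were 26 and 18. Cinnamoyl-CoA reductase LOC_Os08g34280, a lignin enzyme, rose in the middle season by 4.08. Chalcone synthase LOC_Os11g32650, the entry enzyme of flavonoids, went the other way, with an interaction of -3.87 ± 0.16 (log2 ± SE, limma adjusted p = 3.17e-19). A cytochrome P450 gene, LOC_Os05g41440, reversed by about the same size in both directions, at 14.9, 19.1 and 18.2 FPKM on day 1 and 1.27, 1.25 and 1.02 on day 10 in the early season, and 1.89, 1.75 and 1.63 on day 1 and 21.5, 16.9 and 19.5 on day 10 in the middle season. Of 155 P450 genes tested (318 listed), 87 had a positive and 45 a negative called interaction, shares of 56.1% and 29.0%, close to those of all genes.

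**Figure D2:**
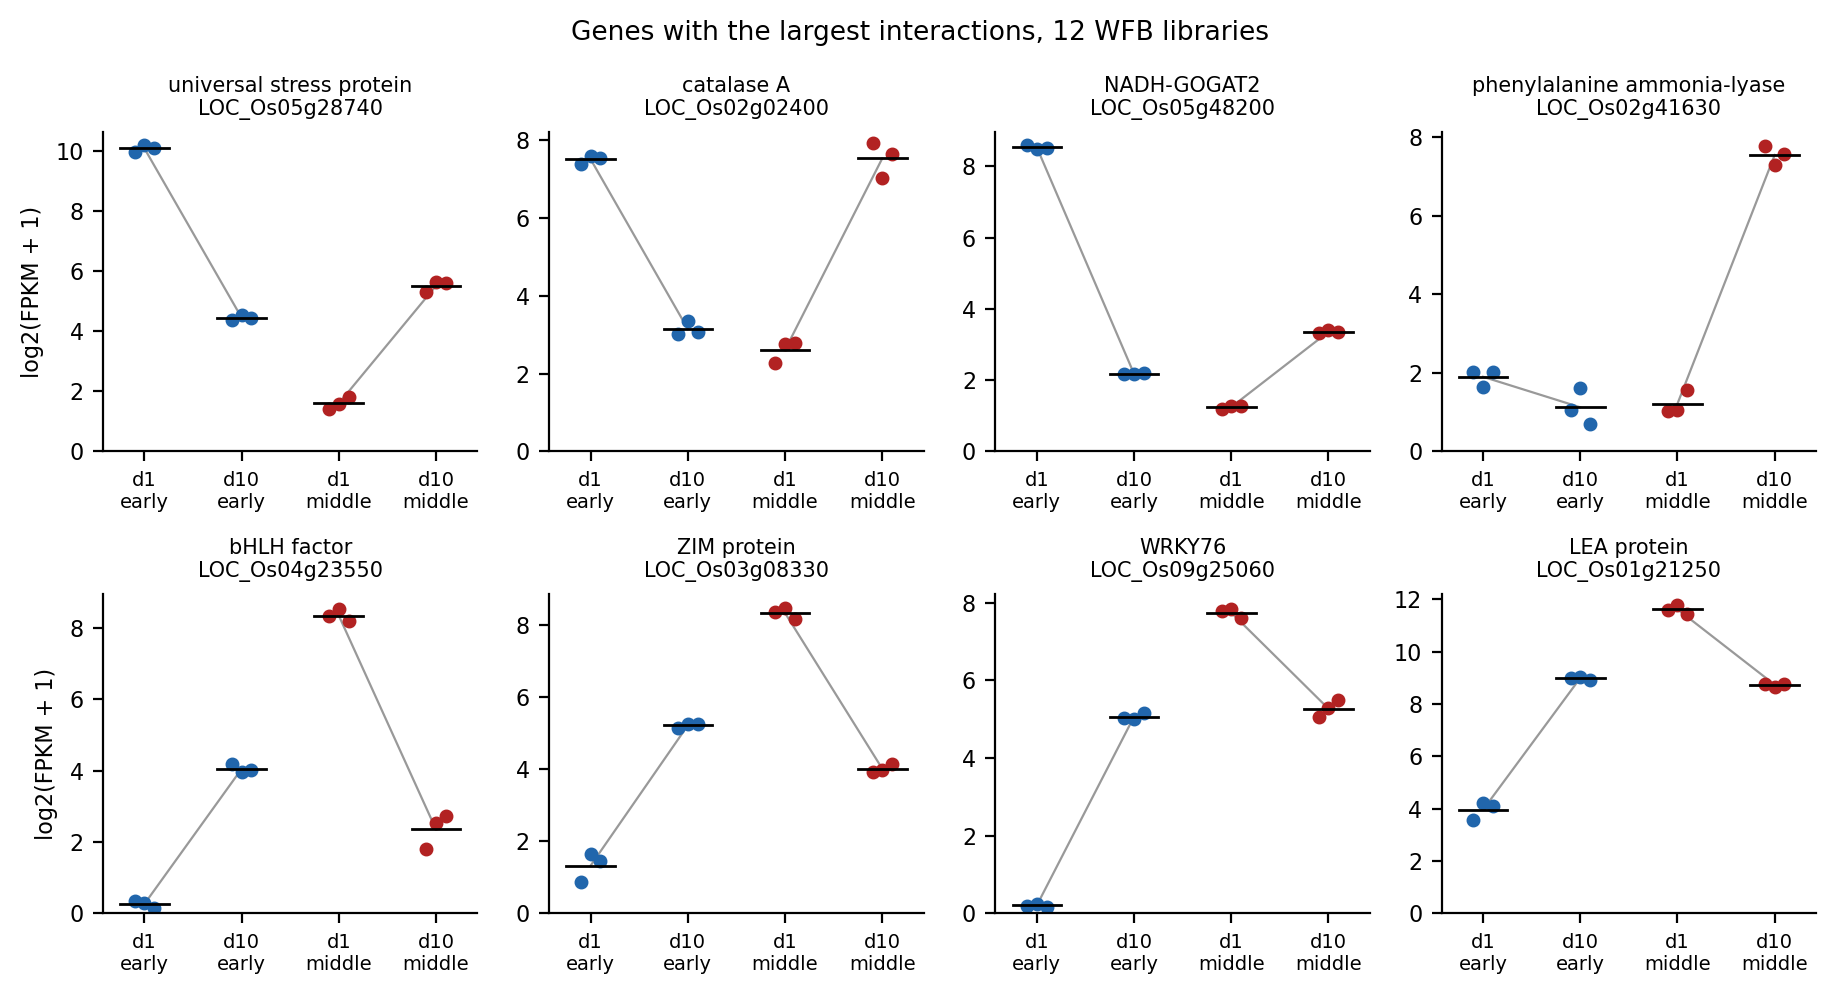
Level of 8 genes in the 12 WFB libraries as log2(FPKM + 1), with 1 point per library, black bars for the mean of 3 libraries and grey lines joining the days of a season (d1, day 1; d10, day 10). The upper genes fell early and rose middle, and the lower genes rose early and fell middle, each with a called interaction.

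Among the largest negative interactions were several regulators that were lowest on day 1 early and highest on day 1 middle. A bHLH transcription factor gene (LOC_Os04g23550) had 0.27, 0.22 and 0.11 FPKM on day 1 and 17.1, 14.6 and 15.1 on day 10 in the early season, and 319.6, 371 and 289.8 on day 1 and 2.49, 4.78 and 5.6 on day 10 in the middle season. It rose early and fell middle, with no overlap between days. The interaction was -9.79 ± 0.36 (log2 ± SE, limma adjusted p = 1.18e-20), against 6.32 in CHT025. The difference between these interactions was -16.10 (limma adjusted p = 9.02e-22). A P450 gene, LOC_Os11g05380, and an AP2-type factor gene, LOC_Os08g36920, had interactions of -9.63 and -9.32 in WFB and of 5.24 and 4.48 in CHT025.

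Several ZIM repressor genes had the same order of groups. LOC_Os03g08330 had 0.82, 2.15 and 1.72 FPKM on day 1 and 34.3, 36.7 and 36.9 on day 10 in the early season, and 325, 353 and 282 on day 1 and 14.1, 14.6 and 16.7 on day 10 in the middle season. LOC_Os10g25230 had 0.28, 0.2 and 0.15 FPKM on day 1 and 12.9, 12.7 and 13.9 on day 10 in the early season, and 88.5, 85.8 and 73.3 on day 1 and 1.44, 1.55 and 1.83 on day 10 in the middle season. In both genes the day 1 middle libraries were the highest and the day 1 early libraries the lowest, without overlap. LOC_Os03g28940, the most abundant, had 18.6, 21.8 and 21.7 FPKM on day 1 and 78.7, 74.6 and 79.3 on day 10 in the early season, and 906, 1006 and 772 on day 1 and 79.4, 72.1 and 70.8 on day 10 in the middle season. Its day 10 levels overlapped between the seasons, with a difference of -0.07 (log2, limma adjusted p = 0.594). The interactions were -8.20 ± 0.22 (log2 ± SE, limma adjusted p = 7.47e-24) for LOC_Os03g08330, -8.55 ± 0.19 for LOC_Os10g25230, -7.33 ± 0.31 for LOC_Os10g25290 and -5.43 ± 0.15 for LOC_Os03g28940. In the middle season alone, without the day 1 early libraries, these genes fell by 4.31, 5.0, 4.31 and 3.57 on the log2 scale.

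Of the 8 ZIM genes tested, 6 had a called interaction below 0 and 1 above 0 in WFB, with a median of -4.19. In CHT025, 6 of the 8 were above 0 and none below, with a median of 2.03, and in WFYT025 2 were above and 3 below. Of all genes, 23.9% were below 0 and 53.5% above in WFB. The all-gene shares above and below were 36.1% and 21.0% in CHT025, and 47.4% and 22.6% in WFYT025. The interaction of WFB was lower than that of CHT025 for 6 of the 8 ZIM genes and higher for 1 (limma, adjusted p under 0.05), and the counts against WFYT025 were the same. Over all genes, 23.0% were lower and 42.7% higher in WFB than in CHT025, and 28.5% and 32.9% against WFYT025. The jasmonate list also holds genes described as lipoxygenases, allene oxide cyclase and oxophytodienoate reductases, families that include the enzymes making the hormone. Across all 23 of its genes tested (36 listed), 15 (65.2%) were below 0 and 6 (26.1%) above, against 23.9% and 53.5% of all genes. Of the 23, 9 (39.1%) rose early and fell middle, against 10.8% of all genes. A lipoxygenase gene, LOC_Os12g37260, went the other way: it averaged 16.4 FPKM on day 1 early and at most 0.34 in the other groups.

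WRKY factors, which bind defence gene promoters, gave 32 negative (51.6%) and 23 positive (37.1%) called interactions among 62 tested (104 listed), against 23.9% and 53.5% of all genes. Of them 20 (32.3%) rose early and fell middle, against 10.8% of all genes. WRKY76 (LOC_Os09g25060) had 0.15, 0.18 and 0.13 FPKM on day 1 and 31.7, 31.3 and 34.6 on day 10 in the early season, and 220.1, 229 and 193 on day 1 and 32.1, 37.8 and 43.9 on day 10 in the middle season. It was near 0 on day 1 early and highest on day 1 middle, and the day 10 levels of the seasons overlapped. Its interaction was -7.33 ± 0.22 (log2 ± SE, limma adjusted p = 4.84e-23). WRKY71 (LOC_Os02g08440) and WRKY24 (LOC_Os01g61080) followed with -5.63 ± 0.15 and -4.98 ± 0.19, where CHT025 had 4.41 and 5.93. WRKY112 (LOC_Os09g09630) averaged 34.4 FPKM on day 1 early and at most 0.0433 elsewhere in WFB.

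The shares below 0 of other regulator families were also above the 23.9% of all genes, and their shares above 0 under 53.5%. Of 80 AP2/ERF genes tested (159 listed), 37 (46.2%) were below 0 and 26 (32.5%) above, or 44 and 20 after quantile normalization. A DREB-type gene, LOC_Os02g45450, of the family that acts in cold and drought responses, averaged 2.13, 26.3, 26 and 0.03 FPKM. Of 51 bHLH genes tested (118 listed), 17 (33.3%) were above and 16 (31.4%) below 0, or 14 and 27 after quantile normalization. LOC_Os01g56690 (-7.35 ± 0.22) and LOC_Os03g53020 (-5.15 ± 0.13) were among the negative ones. NAC factors gave 21 calls (40.4%) in each direction among 52 tested (116 listed), with NAC67 (LOC_Os03g60080) at -3.33 ± 0.11. MYB factors gave 56 above (44.8%) and 46 below (36.8%) among 125 (240 listed), or 41 and 57 after quantile normalization. Among them, LOC_Os08g33150 averaged 45.8 FPKM on day 10 middle and at most 0.407 elsewhere.

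The chitinase gene CHIT1 (LOC_Os02g39330), whose enzyme cuts fungal cell walls, rose early and fell middle, with 9.56, 12.4 and 12.8 FPKM on day 1 and 48, 55.1 and 49.4 on day 10 in the early season, and 195, 178 and 175 on day 1 and 13.9, 12.3 and 11.5 on day 10 in the middle season. Its interaction was -5.80 ± 0.23 (log2 ± SE, limma adjusted p = 8.74e-20). Calcium sensor genes gave 83 positive (46.1%) and 63 negative (35.0%) calls among 180 tested (262 listed), against 53.5% and 23.9% of all genes. A calcium-dependent kinase-like gene, LOC_Os02g03410, and the calmodulin-like gene OsCML27 (LOC_Os03g21380) had interactions of -4.21 and -4.06.

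All 3 early light-induced protein genes tested (6 listed), whose thylakoid proteins accumulate under strong light, rose early and fell middle, against 10.8% of all genes. LOC_Os07g08160 had 2.56, 2.85 and 1.44 FPKM on day 1 and 337, 350.0 and 343 on day 10 in the early season, and 1507, 1387 and 1448 on day 1 and 722, 665 and 853 on day 10 in the middle season. The day 1 early libraries were lowest and the day 1 middle libraries highest. Its interaction was -7.70 ± 0.14 (log2 ± SE, limma adjusted p = 2.56e-28), and those of LOC_Os07g08150 and LOC_Os01g14410 were -6.05 ± 0.08 and -4.03 ± 0.10. Their interactions were below 0 in CHT025 too, at -1.74, -3.27 and -3.36.

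A late embryogenesis abundant (LEA) protein gene, LOC_Os01g21250, of a family tied to water loss, had 10.8, 17.6 and 16 FPKM on day 1 and 514, 525 and 484 on day 10 in the early season, and 3116, 3547 and 2802 on day 1 and 434, 402 and 438 on day 10 in the middle season. Day 1 middle was highest and day 10 was at a similar level in both seasons. The interaction was -7.92 ± 0.16 (log2 ± SE, limma adjusted p = 3.07e-27). Of 10 LEA and dehydrin genes tested (42 listed), 7 were below 0 and 2 above, and 2 rose early and fell middle. An HSP70 chaperone gene, LOC_Os03g16860, averaged 29.5, 159, 637 and 196 FPKM, an interaction of -4.09 ± 0.09. Of 17 HSP70 and HSP90 genes tested (32 listed), 6 (35.3%) were positive and 6 (35.3%) negative, against 53.5% and 23.9% of all genes. Of the 17, 4 (23.5%) rose early and fell middle, against 10.8% of all genes. The opposite reversal was equally frequent, with 4 (23.5%) that fell early and rose middle, against 26.8% of all genes. Of 15 small heat shock protein genes tested (29 listed), 7 (46.7%) were above 0 and 2 (13.3%) below, against 53.5% and 23.9% of all genes. Among those above was LOC_Os03g16040 (2.87 ± 0.26). After quantile normalization the counts were 6 and 4, against 7298 and 6006 of all 18585 genes.

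Ferritin, the iron store of plastids, has a pair of near-identical genes here, whose reads the counting could split. LOC_Os12g01530 had 24.1, 27 and 28 FPKM on day 1 and 732, 714 and 721 on day 10 in the early season, and 1026, 925 and 1051 on day 1 and 836, 876 and 878 on day 10 in the middle season. The day 1 early libraries were low and the other 9 high, and the interaction was -4.94 ± 0.07 (log2 ± SE, limma adjusted p = 5.94e-31). The other copy, LOC_Os11g01530, had an interaction of -4.25 ± 0.20 with a middle change of -0.07 that did not pass the test. Of 6 iron homeostasis genes tested (11 listed), 5 (83.3%) were below 0, against 23.9% of all genes. Above 0 was 1 (16.7%), the metal transporter gene LOC_Os07g15460, against 53.5% of all genes.

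Clock genes also differed between the day 1 early libraries and the rest. LHY (LOC_Os08g06110), a MYB factor known to peak around dawn, had 23.4, 23.5 and 24.1 FPKM on day 1 and 394, 368 and 394 on day 10 in the early season, and 552, 537 and 534 on day 1 and 400.1, 387 and 368 on day 10 in the middle season. Its day 1 early level stood far below those of the other groups, and its day 10 levels overlapped between the seasons (limma adjusted p = 0.986). The interaction was -4.46 ± 0.06 (log2 ± SE, limma adjusted p = 3.68e-31). FKF1 (LOC_Os11g34460), a light-sensing F-box protein gene of the afternoon, had 35.1, 32.4 and 35.5 FPKM on day 1 and 2.8, 2.98 and 3.17 on day 10 in the early season, and 0.08, 0.11 and 0.09 on day 1 and 0.25, 0.27 and 0.19 on day 10 in the middle season. It was highest on day 1 early and its interaction was 3.33 ± 0.10 (log2 ± SE, limma adjusted p = 5.44e-23).

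The evening-complex genes ELF3-2 (LOC_Os01g38530) and LUX (LOC_Os01g74020) averaged 7.89 and 5.81 FPKM on day 1 early and less than 1 FPKM in each other group, with interactions of 2.74 ± 0.12 and 2.58 ± 0.18. PRR95 (LOC_Os09g36220), a daytime repressor of LHY, fell early by 0.76 and rose in the middle season (0.92). GIGANTEA (LOC_Os01g08700), a partner of FKF1, had an interaction of 1.16 ± 0.15 (log2 ± SE, limma adjusted p = 8.31e-08). In all, 9 of 11 clock genes (81.8%) were above 0 and 1 (9.09%), LHY, below, against 53.5% and 23.9% of all genes. PRR73 (LOC_Os03g17570) did not pass the test at 0.03. The LHY interaction was -4.40 in WFYT025 and -2.43 in CHT025, and the WFB value differed from the latter by -2.03 (limma adjusted p = 1.33e-18). Its difference from WFYT025 was -0.06 (limma adjusted p = 0.542). The hour of sampling is not in the labels. Its part in this and in the following results was not tested.

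**Figure D3:**
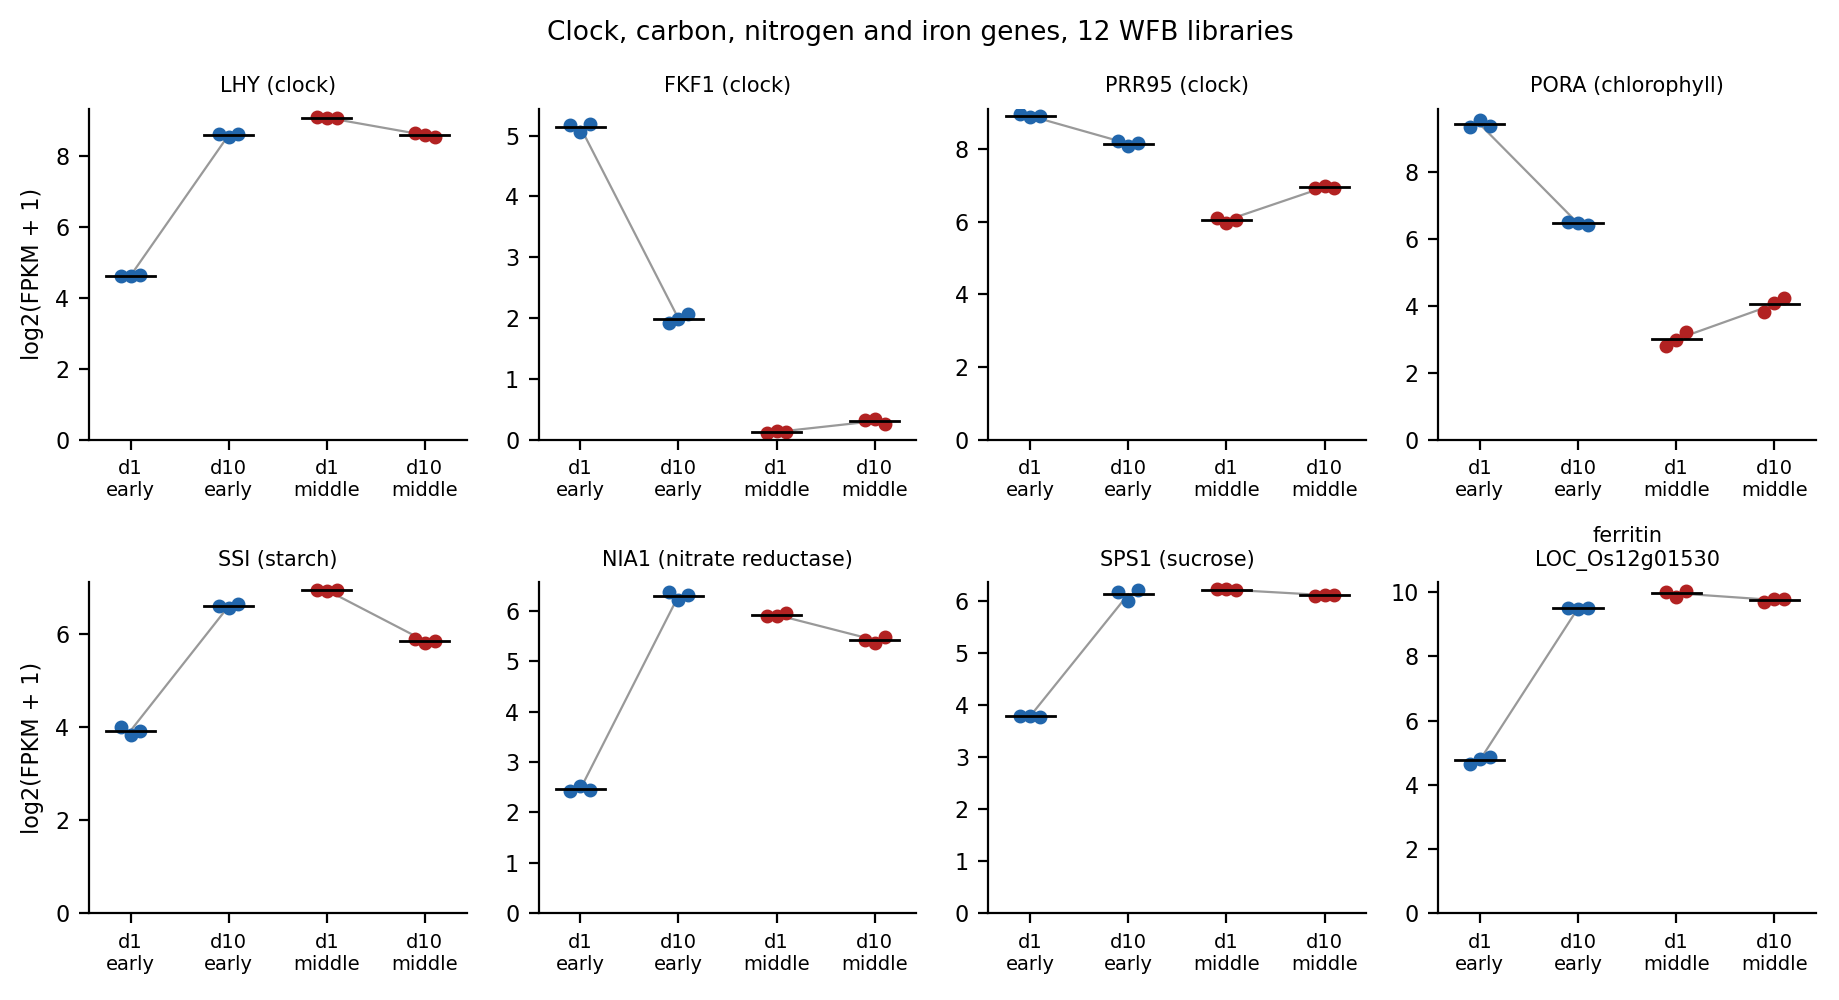
Level of 8 clock, chlorophyll, starch, nitrate, sucrose and iron genes in the 12 WFB libraries as log2(FPKM + 1), with 1 point per library, black bars for the mean of 3 libraries and grey lines joining the days of a season (d1, day 1; d10, day 10). In LHY, FKF1, NIA1, SPS1 and ferritin the early-season days are far apart and the middle-season days close, and PRR95 is higher in both early groups than in both middle groups.

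The florigen gene Hd3a (LOC_Os06g06320), whose protein carries the flowering signal from the leaf, had an interaction of 1.04 ± 0.12 (log2 ± SE, limma adjusted p = 4.41e-09). It averaged 14 FPKM on day 1 and 36 on day 10 middle, against 18.4 and 22.3 in the early season. Its activator Ehd1 (LOC_Os10g32600) was below 0 at -1.40 ± 0.20. Ghd7 and Hd1 were below the filter.

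Of 13 chlorophyll synthesis genes tested, 9 (69.2%) were above 0 and 1 (7.69%) below, against 53.5% and 23.9% of all genes. Of the 13, 7 (53.8%) fell early and rose middle, against 26.8% of all genes. PORA (LOC_Os04g58200), the light-dependent enzyme that makes chlorophyllide, had 657, 753 and 663 FPKM on day 1 and 90.1, 88.1 and 84.2 on day 10 in the early season, and 6, 6.92 and 8.27 on day 1 and 13.2, 15.9 and 17.9 on day 10 in the middle season. Its level was highest on day 1 early and lowest on day 1 middle, and the interaction was 4.01 ± 0.15 (log2 ± SE, limma adjusted p = 2.32e-20). GSA (LOC_Os08g41990), which makes the precursor 5-aminolevulinate, and PORB (LOC_Os10g35370) had interactions of 2.79 ± 0.05 and 1.46 ± 0.06. In the middle season alone PORA rose by 1.05, GSA by 0.88 and PORB by 0.21. The exception was HEMA1 (LOC_Os10g35840), at -0.23, which turned to 0.16 after quantile normalization.

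Chlorophyll breakdown and senescence genes were mixed, with 4 (57.1%) above and 2 (28.6%) below 0 of 7, close to the 53.5% and 23.9% of all genes. SGR (LOC_Os09g36200), the stay-green protein that starts chlorophyll removal, averaged 0.847 and 6.11 FPKM early and 21.6 and 22.8 middle, an interaction of -1.88 ± 0.12 (log2 ± SE, limma adjusted p = 7.65e-15). NAP (LOC_Os03g21060), a NAC factor that promotes leaf senescence, rose in both seasons and more in the middle one (2.05 against 0.92).

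Of 93 light-harvesting and photosystem genes tested (140 listed), 38 (40.9%) were above and 33 (35.5%) below 0, against 53.5% and 23.9% of all genes. A 10 kDa photosystem II subunit gene, LOC_Os07g05360, had 3803, 3312 and 3741 FPKM on day 1 and 2857, 3487 and 2975 on day 10 in the early season, and 272, 392 and 356 on day 1 and 3677, 4596 and 3647 on day 10 in the middle season. The day 1 middle libraries were the low ones, and the interaction was 3.77 ± 0.17 (log2 ± SE, limma adjusted p = 1.15e-18). A chlorophyll-binding protein gene, LOC_Os09g26810, was at 3.93 ± 0.13. The most negative members by name, LOC_Os08g37660 (-5.38) and LOC_Os08g37670 (-5.29), encode plastocyanin-like domain proteins and are no photosystem subunits. Rubisco activase (RCA, LOC_Os11g47970), which keeps Rubisco active, rose in both seasons, by 1.58 early and 0.25 middle. Photorespiration genes gave 9 above (56.2%) and 7 below (43.8%) of 16, with glycine dehydrogenase LOC_Os01g51410 at -2.22 ± 0.05.

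More starch genes were below 0 than above. Of 22 tested (24 listed), 14 (63.6%) were below 0 and 4 (18.2%) above, against 23.9% and 53.5% of all genes. After quantile normalization these were 17 and 2, against 6006 and 7298 of all 18585 genes. Without it, 9 (40.9%) rose early and fell middle, against 10.8% of all genes. The count above 0 was 2 without day 1 early replicate 1. SSI (LOC_Os06g06560), a soluble starch synthase that extends short chains, had 15.1, 13.2 and 14.2 FPKM on day 1 and 95.7, 93.5 and 98.6 on day 10 in the early season, and 122, 121 and 123 on day 1 and 58, 55.1 and 56.8 on day 10 in the middle season. Day 1 early was lowest and day 1 middle highest, with no overlap between any groups, and the interaction was -3.77 ± 0.06 (log2 ± SE, limma adjusted p = 1.67e-29). GBSSII (LOC_Os07g22930), which makes amylose in leaves, had 44.7, 43.3 and 45.4 FPKM on day 1 and 308, 305 and 310.3 on day 10 in the early season, and 220.3, 211 and 219.6 on day 1 and 145, 139.7 and 132 on day 10 in the middle season, an interaction of -3.40 ± 0.10. SSIIIb (LOC_Os04g53310) and DPE2 (LOC_Os07g46790), which uses maltose from starch breakdown, were at -1.80 ± 0.08 and -1.43 ± 0.07. SSIVb (LOC_Os05g45720) was above 0 at 1.85 ± 0.11. The endosperm enzymes GBSSI (LOC_Os06g04200, -1.97) and BEIIb (LOC_Os02g32660, -1.17) lost their calls when a library was left out: GBSSI without day 1 early replicate 1, day 10 early replicate 3, day 1 middle replicate 2 or day 10 middle replicate 2, and BEIIb without day 10 early replicate 3 or day 10 middle replicate 2. Their values without these libraries were -1.54 to -1.74 and -0.92 and -0.89.

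Sucrose genes went both ways. SPS1 (LOC_Os01g69030), a sucrose-phosphate synthase of leaves, had 12.9, 12.9 and 12.6 FPKM on day 1 and 71, 63.6 and 73.2 on day 10 in the early season, and 73.8, 74.6 and 72.8 on day 1 and 68, 68.4 and 68.7 on day 10 in the middle season. Day 1 early was low and the other groups nearly level. The interaction of -2.45 ± 0.06 (log2 ± SE, limma adjusted p = 1.1e-24) thus rests mainly on the day 1 early libraries, the group that stands apart. The cytosolic fructose bisphosphatase cFBP1 (LOC_Os01g64660), an earlier step of sucrose synthesis, was at -2.77 ± 0.06, and the vacuolar sucrose transporter SUT2 (LOC_Os12g44380) at -2.23 ± 0.07. SUS2 (LOC_Os06g09450), a sucrose synthase that cleaves sucrose, reversed the other way, with 40.1, 41 and 42.4 FPKM on day 1 and 11.1, 12.9 and 11.8 on day 10 in the early season, and 10.8, 11.4 and 12.5 on day 1 and 31.2, 30.9 and 29.9 on day 10 in the middle season. Its interaction was 3.04 ± 0.08 (log2 ± SE, limma adjusted p = 2.66e-24), against 0.18 in CHT025, which did not pass the test, with a difference of 2.87 (limma adjusted p = 2.26e-19). Of 15 sucrose genes tested (18 listed), 7 (46.7%) were above 0 and 5 (33.3%) below, against 53.5% and 23.9% of all genes. The phloem loader SUT1 (LOC_Os03g07480) was at 0.94 ± 0.12.

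Genes of nitrate reduction rose in the early season and fell in the middle season. The nitrate reductase gene NIA1 (LOC_Os08g36480) had 4.38, 4.72 and 4.44 FPKM on day 1 and 81.5, 72.8 and 78 on day 10 in the early season, and 58.6, 58.1 and 61.3 on day 1 and 41.9, 39.9 and 43.5 on day 10 in the middle season. Day 1 early was far below the other groups. The interaction was -4.33 ± 0.08 (log2 ± SE, limma adjusted p = 1.49e-28). NIA2 (LOC_Os08g36500), an adjacent copy that may share reads, and nitrite reductase (NiR, LOC_Os01g25484), which takes the next step to ammonium, were at -3.94 ± 0.07 and -2.50 ± 0.10. For NiR the high group was day 10 early (63.8 FPKM, against 15.9, 21 and 13.9 elsewhere), so its day 10 season difference was -2.13 (log2, limma adjusted p = 4.28e-21), and its interaction was above 0 in CHT025 (1.84).

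The cytosolic glutamine synthetase gene GS1;1 (LOC_Os02g50240), which makes glutamine for transport, rose in both seasons and more in the middle season, with 33, 35.9 and 35.5 FPKM on day 1 and 51.8, 51.4 and 51.7 on day 10 in the early season, and 77.5, 79 and 83.2 on day 1 and 291, 257 and 272 on day 10 in the middle season. The interaction was 1.21 ± 0.07 (log2 ± SE, limma adjusted p = 2.91e-16), and it was below 0 in CHT025 (-1.17) and WFYT025 (-1.69). Of 9 nitrogen genes tested (11 listed), 4 (44.4%) were above and 5 (55.6%) below 0, against 53.5% and 23.9% of all genes. Of the inorganic phosphate transporters, LOC_Os04g10750 was at -2.78 ± 0.12.

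Most protein synthesis genes were above 0. Of 250 cytosolic ribosomal protein genes tested (271 listed), 227 (90.8%) were above 0 and 3 (1.2%) below, against 53.5% and 23.9% of all genes. Of the 250, 119 (47.6%) fell early and rose middle, against 26.8% of all genes. Their median was 1.0 against 0.35 for all genes. After quantile normalization the counts were 206 and 7 and the median 0.88 against 0.07. The median early change was -0.78 and the median middle change 0.18. Ribosomal protein L24 gene LOC_Os06g46930 had 228, 231 and 237 FPKM on day 1 and 48.4, 53.7 and 49.8 on day 10 in the early season, and 49.9, 49.4 and 48.3 on day 1 and 57.7, 62.5 and 69.8 on day 10 in the middle season. Day 1 early was high and the other groups alike, and the interaction was 2.53 ± 0.09 (log2 ± SE, limma adjusted p = 3.64e-21). The list medians of CHT025 and WFYT025 were 0.40 and 0.98, beside 0.12 and 0.25 for all genes.

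For all 18585 genes, the shares above and below 0 were 53.5% and 23.9%, and the counts after quantile normalization 7298 and 6006. Of 58 aminoacyl-tRNA synthetase genes tested (68 listed), which load tRNAs with amino acids, 52 (89.7%) were above and 3 (5.17%) below 0. Of the 58, 39 (67.2%) fell early and rose middle, against 26.8% of all genes. Translation factors gave 52 (72.2%) and 11 (15.3%) of 72 (81 listed), with eIF5A gene LOC_Os12g32240 at 1.86 ± 0.07. Pentatricopeptide proteins, which bind organelle RNA, gave 221 (78.1%) and 17 (6.01%) of 283 (387 listed), or 151 and 33 after quantile normalization. Splicing and RNA-binding proteins gave 117 (65.4%) and 26 (14.5%) of 179 (216 listed), or 96 and 42, with LOC_Os03g46770 at 3147, 483, 189 and 338 FPKM. Proteasome genes gave 27 (79.4%) and 1 (2.94%) of 34 (37 listed). Their leading members, the UMP1 genes LOC_Os03g38720 and LOC_Os09g14590, were listed at 0 in all WFB groups but day 1 early. Both were also off in the other varieties, so their interactions could only be positive. Ribosomal proteins of chloroplasts and mitochondria did not follow: 24 were above and 30 below 0 of 75 (83 listed), or 16 and 41 after quantile normalization. A plastid-specific ribosomal protein gene, LOC_Os03g63950, was among the exceptions at 4.42 ± 0.29.

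**Figure D4:**
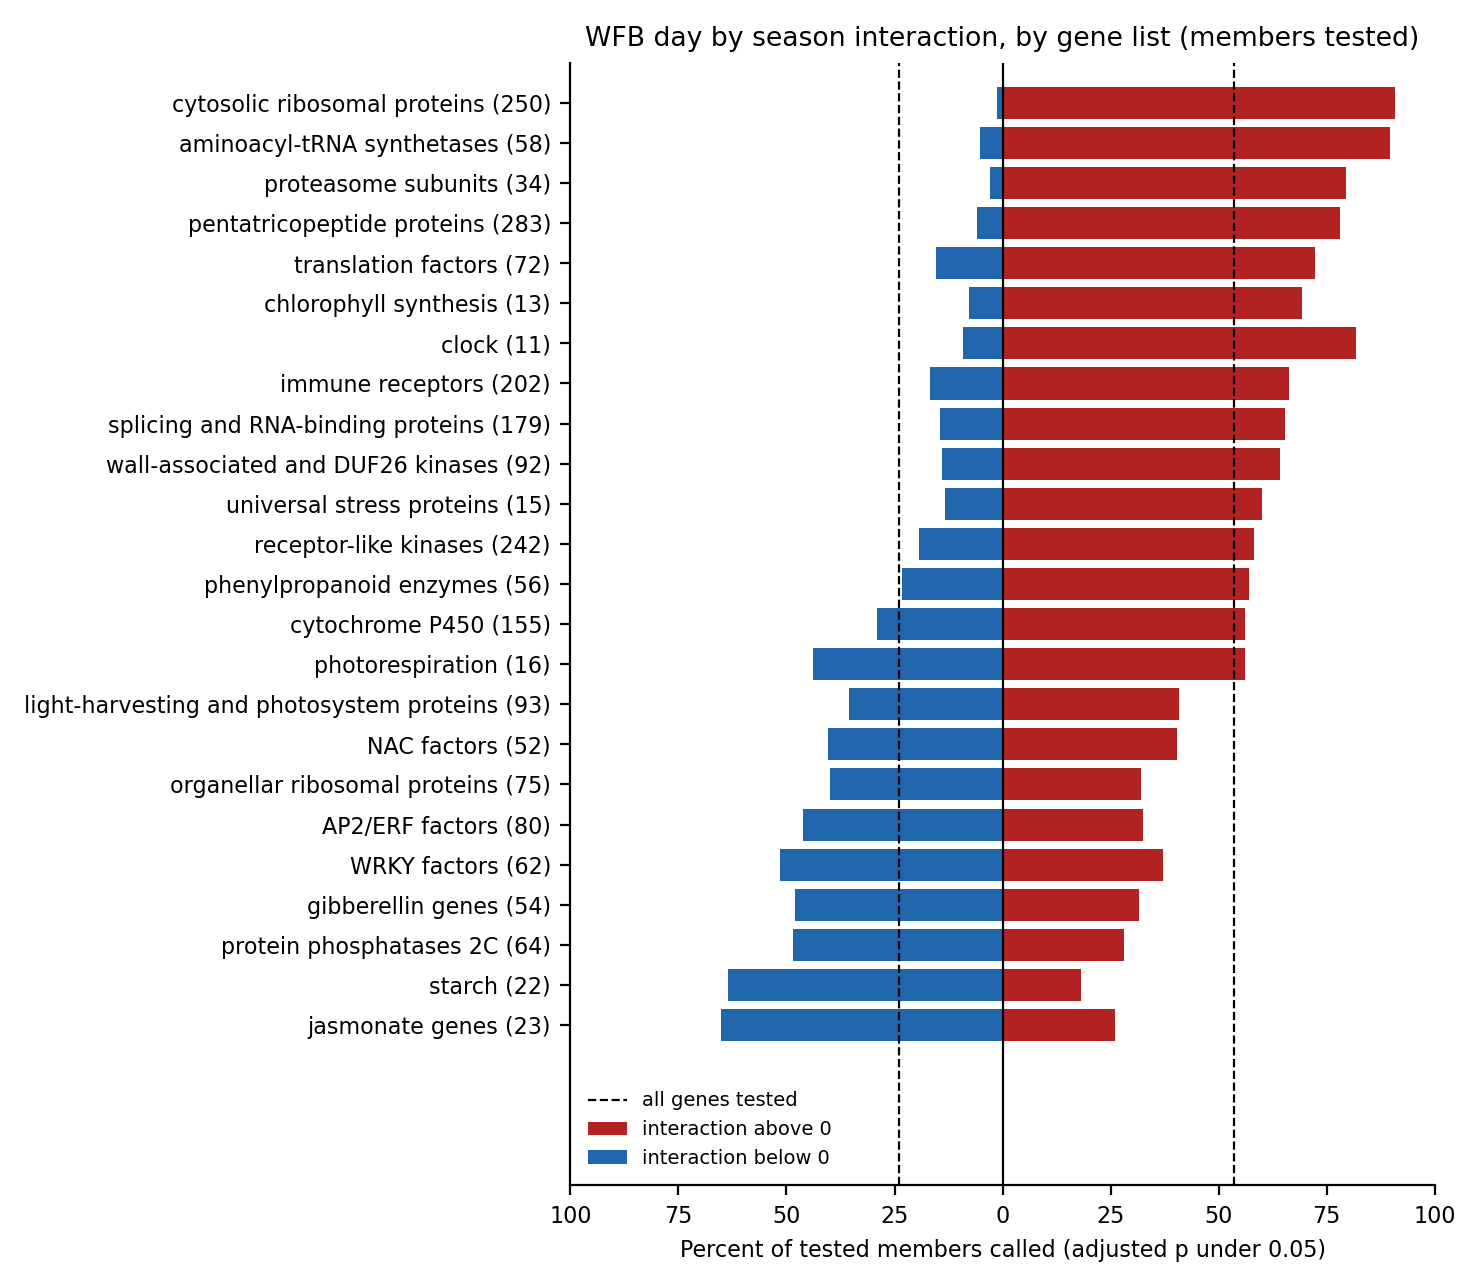
Share of the tested members of 24 gene lists with a called WFB interaction, above 0 to the right in red and below 0 to the left in blue, with the number tested in brackets. Dashed lines mark the shares over all genes tested, 53.5% above and 23.9% below; cytosolic ribosomal proteins reach 90.8% above, and jasmonate genes 65.2% below.

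Receptor genes had called shares above 0 of 58.3% to 66.3%, against 53.5% of all genes. Immune receptors of the NB-ARC class, which sense pathogen proteins, gave 134 (66.3%) above and 34 (16.8%) below of 202 (412 listed), or 100 and 47 after quantile normalization. Wall-associated and DUF26 kinases gave 59 and 13 of 92 (210 listed), or 46 and 18, and receptor-like kinases 141 and 47 of 242 (472 listed), or 115 and 66. Some genes with such descriptions were on in day 1 early and off in all other libraries of the series. They include LOC_Os11g11550, LOC_Os11g11580, OsWAK117 (LOC_Os11g35220) and LOC_Os07g02450. Their interactions could only be positive, and the counts without such genes were not made. OsWAK61 (LOC_Os06g05050) had 51.2, 51.5 and 48.5 FPKM on day 1 and 3.8, 4.48 and 2.95 on day 10 in the early season, and 2.39, 2.58 and 2.33 on day 1 and 12.1, 12.5 and 11.7 on day 10 in the middle season, highest on day 1 early. Its interaction was 5.38 ± 0.09 (log2 ± SE, limma adjusted p = 1.19e-28). OsWAK112d (LOC_Os10g10130) was highest on day 10 middle (14.9 FPKM, from 0.287 on day 1), and its middle change was 3.63. OsWAK123 (LOC_Os11g47140) averaged 23.3 FPKM on day 1 early and less than 0.1 elsewhere in WFB.

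Among hormone genes, gibberellin genes gave 26 below (48.1%) and 17 above 0 (31.5%) of 54 (83 listed), against 23.9% and 53.5% of all genes. The GID1L2 gene LOC_Os07g06850, related by name to the gibberellin receptor, was above 0 at 4.78 ± 0.15. Abscisic acid genes gave 8 above and 3 below of 12 (14 listed): the abscisic stress-ripening gene LOC_Os11g06720 had 1362, 1733 and 1652 FPKM on day 1 and 298, 305 and 285 on day 10 in the early season, and 133, 151 and 161 on day 1 and 425, 376 and 433 on day 10 in the middle season, an interaction of 3.88 ± 0.12, and a 9-cis-epoxycarotenoid dioxygenase gene (LOC_Os12g42280), of the enzyme that commits to abscisic acid synthesis, was at -3.43 ± 0.12. Type 2C protein phosphatases, the class that holds abscisic acid signalling brakes, gave 31 below (48.4%) and 18 above (28.1%) of 64 (72 listed), or 41 and 10 after quantile normalization.

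Further genes reversed strongly in both seasons. Means are given in the order day 1 early, day 10 early, day 1 middle and day 10 middle. Another auxin-repressed protein gene, LOC_Os09g26620, averaged 58.8, 6.92, 3.16 and 17.4 FPKM, and a hypersensitive-induced response protein gene, LOC_Os05g51420, averaged 146, 16.6, 2.63 and 13.5 FPKM. Both fell early and rose middle. In the other direction, a MAP3K-type kinase gene of stress signalling cascades, LOC_Os01g50410, averaged 0.26, 12, 71.9 and 5.46 FPKM, and a phosphate-induced protein gene, LOC_Os02g52010, averaged 0.597, 20.7, 34.1 and 2.87 FPKM. A C3HC4 zinc finger gene, LOC_Os02g52210, had an interaction of -7.78 ± 0.16 (log2 ± SE, limma adjusted p = 1.27e-26).

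Genes of transport and detoxification went both ways. For all 18585 genes, 53.5% were above and 23.9% below 0, or 7298 and 6006 genes after quantile normalization. Glutathione S-transferases, which attach glutathione to toxic compounds, gave 19 above (41.3%) and 15 below 0 (32.6%) of 46 tested (78 listed), or 13 and 18 after quantile normalization. LOC_Os10g38610 of this family averaged 1.13, 41.3, 71.5 and 56 FPKM and LOC_Os10g38780 averaged 0.977, 1.3, 2.41 and 35.8 FPKM. UDP-glycosyltransferases, which add sugars to hormones and phenolics, gave 81 (50.9%) and 45 (28.3%) of 159 (290 listed), or 60 and 55, with LOC_Os01g08440 at -5.77 ± 0.09 and LOC_Os06g07600 at 5.61 ± 0.12. Amino acid transporters gave 32 (56.1%) and 17 (29.8%) of 57 (91 listed), or 23 and 20, and ABC transporters 20 (42.6%) and 17 (36.2%) of 47 (70 listed), or 13 and 24. An auxin efflux carrier gene, LOC_Os08g09190, averaged 26.5, 7.63, 1.93 and 7.91 FPKM. The B-box and CCT factors, many of them light-signalling regulators, gave 9 above (29.0%) and 15 below 0 (48.4%) of 31 (42 listed). LOC_Os02g49880 among them was highest on day 1 early (4.22 ± 0.13) and LOC_Os06g45040 lowest there (-3.78 ± 0.15).

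Markers of other tissues and of dividing cells differed between groups. Grain storage protein genes (43 listed) summed to 5.64, 123 and 5.76 FPKM in day 1 early, 12.9, 14.1 and 414 in day 10 early, 575, 647 and 480 in day 1 middle, and 108, 3.16 and 296 in day 10 middle. The day 1 middle libraries were all high, and replicates of each other group differed many-fold. Of 28 tested, 14 were called below 0 and 0 above, while 23.9% of all genes were below 0 and 53.5% above. But the count below 0 was 26 without day 1 early replicate 2 or day 10 middle replicate 3. It was 24 without day 10 early replicate 1 or 2. It lay within 2 to 8 without day 1 early replicate 1 or 3, or day 10 early replicate 3. The count lay in the same range without day 1 middle replicate 1 or day 10 middle replicate 1 or 2. The part of these transcripts in other results was not tested. Genes named for pollen (91 listed, 48 at 0 in all 12 libraries) summed to 88.8 to 102 FPKM in day 1 early, 130.0 to 132 in day 10 early, 150.0 to 170.0 in day 1 middle and 217 to 241 in day 10 middle. Core histone genes summed to 3003 to 3300 FPKM on day 1 and 5117 to 5381 on day 10 early, and to 2585 to 2762 and 4174 to 4952 middle, and cell cycle genes stayed between 764 and 965.

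The WFB interaction was then tested against those of the other varieties, which share no library with it. Against CHT025, 7943 genes (42.7%) had a higher and 4280 (23.0%) a lower interaction in WFB. Against WFYT025, 6108 (32.9%) were higher and 5291 (28.5%) lower. Of the 4005 genes with a positive 2-fold interaction in WFB, 2258 also had a called positive interaction in CHT025 and 387 a negative one, and in WFYT025 these were 2788 and 439. As shares these are 56.4% and 9.66% in CHT025 and 69.6% and 11% in WFYT025, beside 36.1% and 21.0%, and 47.4% and 22.6%, of all genes tested. Of the 2134 negative genes, 1011 were called negative and 595 positive in CHT025, and 1259 and 488 in WFYT025, which are 47.4% and 27.9%, and 59.0% and 22.9%. The medians of the positive genes were 1.47 in WFB, where they were chosen, 0.40 in CHT025 and 0.74 in WFYT025, and those of the negative genes -1.76, -0.26 and -0.55.

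Among the genes that differed most, the direction was often opposite. The RALF gene LOC_Os10g42020 was at 4.85 ± 0.25 (log2 ± SE, limma adjusted p = 5.4e-17) in WFB and -4.56 in CHT025. The bHLH gene LOC_Os01g56690 was at -7.35 in WFB and 5.27 in CHT025, a difference of -12.62 (limma adjusted p = 1.39e-24). In contrast, the plastid ribosomal protein gene LOC_Os03g63950 had 3.97 in CHT025 and 3.51 in WFYT025, and the differences of WFB from these did not pass the test, at 0.45 (limma adjusted p = 0.348) and 0.90 (limma adjusted p = 0.0593).

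**Figure D5:**
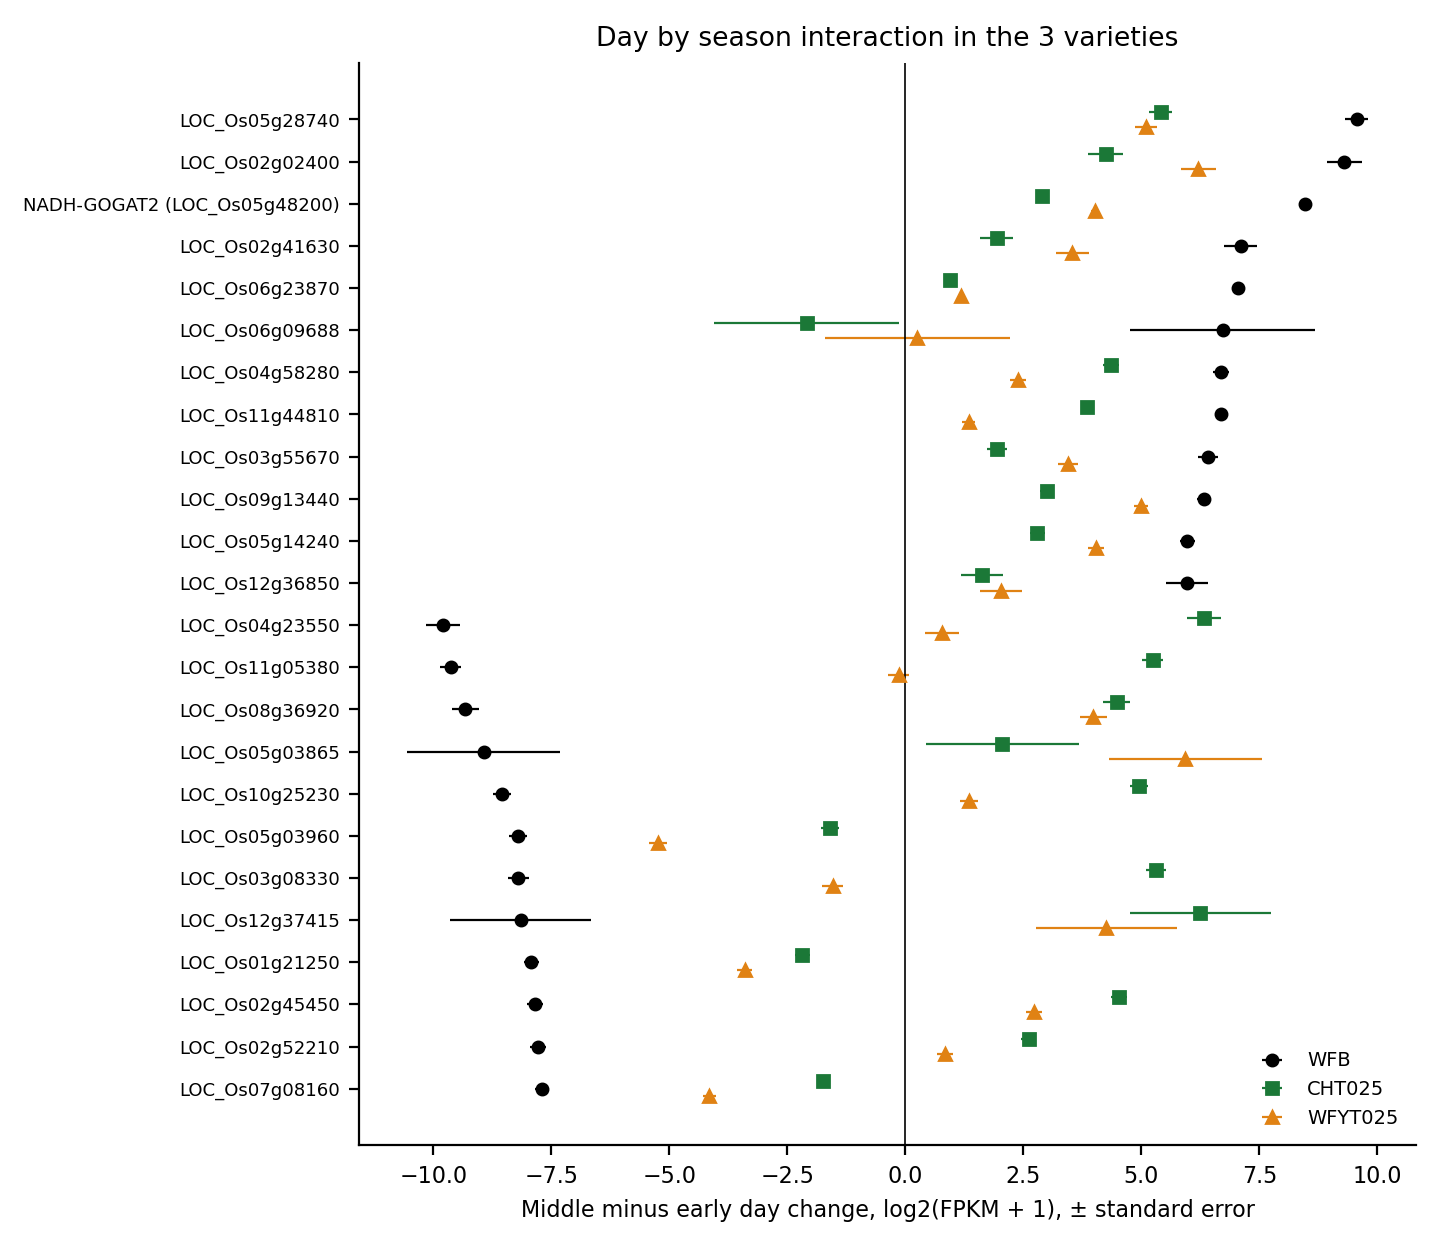
Interaction (middle minus early change from day 1 to day 10, log2(FPKM + 1)) with its standard error for the 24 genes with the largest positive and negative interactions in WFB, in WFB (black), CHT025 (green) and WFYT025 (orange). The genes were chosen on the WFB values; LOC_Os04g23550 lies at -9.79 in WFB and 6.32 in CHT025.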

How the data were processed

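Flag-leaf RNA of 3 rice varieties at 2 days and in 2 seasons was sequenced as paired-end mRNA libraries after Trizol extraction, per the labels' protocols. The submitters' processing notes name HISAT, StringTie and edgeR. The genome build, annotation and tool versions were not given in the sources used here. In all, 6 tables were deposited by the authors, each with the FPKM of the day 1 and day 10 libraries of a variety in a season, and, for their own comparison of the days, a direction and an adjusted p-value. FPKM are not counts, so no count test was run, depth is unknown and no counting interval can be given. The WFYT025 early table held 1 broken line and 7534 recurring lines, and only the 34623 genes present in every table were kept.

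From these values log2(FPKM + 1) was computed, genes with 1 FPKM or more in at least 3 of 36 libraries (18585) were kept, and limma 3.58.1 (R 4.3.3) fitted 12 group means with 24 residual degrees of freedom, a variance trend and Benjamini-Hochberg adjustment over all genes tested. Genes with an adjusted p below 0.05 count as called, and as reversed when called in both seasons in opposite directions with a called interaction. The median residual SD was 0.106. All tests are two-sided. Simulated data had independent normal noise of the fitted size and no WFB interaction except in 100 genes changed 1.5-fold and 100 changed 2-fold. There the test recovered 70% of the first and 89% of the second among 18585 genes, with 12 false calls. In the data 77.3% of genes were called, so these values do not carry over. The simulation held no shift shared by the libraries of a group and cannot show false calls from such a shift. The labels do not say whether same-numbered replicates pair, and the main fit did not pair them. Over 18 pairs, the correlations of their deviations from the group means ran from -0.316 to 0.352, with 3 above 0.1. Alternatives were pseudocounts, filters, quantile scaling, FPKM sums, WFB libraries alone, the replicate block and each library left out.

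Named genes were the 12 largest interactions in each direction at 10 FPKM or more in a WFB group, the 10 strongest reversals in each direction, up to 4 called members of each list, hand-picked loci of at least 2-fold, the 6 largest differences from each other variety in each direction, and members needed to account for a small count. Members and lists were chosen with earlier results of these data known, and other genes named were chosen after their values were seen. Gene lists came from the deposited descriptions or from locus numbers of well-known genes. Tables and figures were made with Python 3.11.15, pandas 2.3.3 and matplotlib 3.10.9.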

Additional observations from a re-analysis of the deposited data

Results flagged for a closer look

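The WFB interaction differed from that of another variety, by a test of the difference itself, for many genes. It was higher than in CHT025 for 7943 genes and lower for 4280, and higher than in WFYT025 for 6108 and lower for 5291 (limma, adjusted p under 0.05). The values that follow are WFB minus the other variety, log2.

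Against CHT025, the genes furthest below 0 were the bHLH gene LOC_Os04g23550 at -16.10, the P450 gene LOC_Os11g05380 at -14.87, LOC_Os12g37415 (no described function) at -14.40, the AP2 gene LOC_Os08g36920 at -13.80, and the ZIM genes LOC_Os10g25230 and LOC_Os03g08330, both at -13.50. Those above 0 were the RALF genes LOC_Os10g42020 at 9.40 and LOC_Os06g29730 at 7.49, the chaperonin gene LOC_Os06g09688 at 8.81, the small heat shock gene LOC_Os03g16040 at 6.31, the acyl-CoA dehydrogenase gene LOC_Os06g23870 at 6.10 and LOC_Os12g16280 at 5.65. LOC_Os06g23870 and LOC_Os12g16280 were near 0 in all WFB groups but day 1 early.

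Against WFYT025, the lowest were LOC_Os05g03865 at -14.86, LOC_Os08g36920 at -13.30, LOC_Os12g37415 at -12.41, the DREB-type gene LOC_Os02g45450 at -10.57, LOC_Os04g23550 at -10.55 and LOC_Os10g25230 at -9.90. The highest were LOC_Os02g01590 at 6.91, LOC_Os05g04110 and LOC_Os05g04090, both at 6.58, LOC_Os06g09688 at 6.47, LOC_Os06g36040 at 6.45 and LOC_Os10g42020 at 6.09. The cause of these differences was not tested.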

How the results depend on the processing

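The numbers of called genes above and below 0 stayed within 1.5 times under the alternatives run. The 2-fold counts did not: with a pseudocount of 5 they were 1733 above and 1413 below, and after quantile normalization 2630 above. Genes that fell early and rose middle numbered 2950 after quantile normalization. The 2-fold reversals depended most on the pseudocount, with 686 and 438 at 0.1 and 68 and 130 at 5 (fell early and rose middle first). By arithmetic, a larger pseudocount shrinks the log2 change of low genes. After quantile normalization there were 161 of the first kind, and the cause of that change was not tested. Leaving out each WFB library in turn gave 9542 to 9793 called above and 4297 to 4408 below, 3884 to 4052 and 2093 to 2170 at 2-fold, 4688 to 4865 and 1920 to 1956 reversals, and 255 to 276 and 262 to 277 at 2-fold. Against CHT025 these ranges were 7625 to 7890 and 4174 to 4263, and against WFYT025 5808 to 6096 and 5128 to 5233.

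Whether same-numbered replicates share more than a number is not stated in the labels. With the replicate block the counts were 9926 and 4427, 4005 and 2131 at 2-fold, 4967 and 2001 reversals, 261 and 267 at 2-fold, 7945 and 4268 against CHT025, and 6108 and 5280 against WFYT025. Dropping the 79 genes on or off in day 1 early alone was an alternative chosen after seeing the data. So few genes could not move any of these counts past 1.5 times. The day 1 early libraries stay in every remaining interaction, so this alternative gives no check on them.

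Of 6498 alternative values for 327 named genes, 6408 kept direction and call, 73 lost the call, 13 gained it and 4 changed sign: after quantile normalization AGPL1 went from 0.08 to -0.36, GS1;2 from 0.20 to -0.11 and HEMA1 from -0.23 to 0.16, and at a pseudocount of 0.1 LOC_Os02g01590 went from 0.74 to -1.36. The starch synthase gene SSIVa (LOC_Os01g52250, 1.35) lost its call without day 1 early replicate 1 (1.03) or 3 (0.95). Depth is unknown, so low values carry an unmeasured counting error.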
